A study of Mus musculus with 19 samples.

Results

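Potassium channel genes were followed across the cortex of E14.5 mouse embryos (E, embryonic day). They were taken as every gene in the expression table whose symbol starts with Kcn and goes on with letters and a number, a rule that uses names alone and no measured value. It picked 92 of 47643 gene symbols: 77 genes of pore-forming subunits and 15 of accessory subunits, in 14 families. Antisense and host transcripts such as Kcnq1ot1 and Kcnd3os fall outside it. The samples were 19 RNA sequencing libraries in 4 groups, which differ in genotype and in the piece of cortex. Controls are labelled wildtype. Mutants are labelled GFAP::Cre; SmoM2: Cre recombinase under the GFAP promoter, which in mouse cortex acts in radial glia and so also marks their progeny, turns on SmoM2, a form of Smoothened that signals without its ligand. Dorsal cortex gave 6 control and 4 mutant libraries, medial cortex 5 control and 4 mutant ones. The labels name no strain and no treatment, and do not say which cells had recombined. Their tissue field reads dorsal or medial cortex, whereas the extraction text speaks of medial or lateral pieces.

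Potassium channels let potassium ions leave a cell and so hold its membrane potential near rest or bring it back there after depolarisation. Voltage-gated (Kv) channels open on depolarisation, calcium- and sodium-activated channels open with the ion that entered during activity, inward rectifiers (Kir) and two-pore-domain (K2P) channels set the resting potential, and accessory subunits change how many channels reach the surface and how they gate. In embryonic cortex, voltage-gated potassium currents grow as neurons leave the ventricular zone and mature, while progenitors and later glia rely more on resting conductances. In bulk tissue, fewer cells of a type and less RNA per cell cannot be told apart.

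Levels are in TPM, read shares scaled by transcript length and to a total of 1000000 per library; sequencing depth is unknown and no counting error can be given. Tests are limma fits on log2(TPM + 1) over the 13520 genes that reached 1 TPM in 4 or more libraries, with Benjamini-Hochberg adjustment over all of them and a threshold of 0.05; log2 changes carry their standard error and, because of the added 1, understate the change of low genes. The labels were checked on the Hedgehog target Gli1, whose mean went from 0.586 TPM in controls to 35.0 TPM in mutants dorsally, and from 0.398 to 37.2 TPM medially. No label ties a library to an embryo, so a p-value here describes how far libraries spread within groups, pooled over the 4 groups, which may be technical. Dorsal and medial libraries with the same title number deviated together within a genotype and are treated as pieces of 1 embryo where a block is named. By X- and Y-linked genes 3 of the 6 control embryos were female and all 4 mutant embryos male, so sex is unbalanced between genotypes.

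Of the 92 genes, 53 passed the filter on level and were tested, 40 reached 1 TPM in every library and 13 reached 5 TPM in every library. A further 39 were not tested: Kcnmb3 and Kcnk16 were listed at 0 throughout, and 34 genes in all never reached 1 TPM, among them Kcnd1, Kcnc4, Kcnq1 and Kcnj6. Only Kcne2, Kcnj13, Kcns2, Kcnj4 and Kcnk13 reached 1 TPM somewhere without passing the filter. The repertoire was uneven. The 12 genes with the highest means held 60.9% of the summed TPM of the members in control dorsal cortex, led by the K2P channel gene Kcnk10 (56.9 ± 2.54 TPM, mean ± SD, n = 6) and the ATP-sensitive Kir gene Kcnj11 (48.2 ± 2.00 TPM), followed by Kcnn1 (29.2 ± 3.70 TPM) and Kcnip3 (25.7 ± 2.24 TPM).

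Summed over all 92 genes, potassium channel transcripts made up 492 ± 26.1 TPM in control dorsal libraries (mean ± SD, n = 6, lowest 449.9, highest 519.7) and 369.8 ± 36.4 TPM in mutant dorsal libraries (n = 4, 320.9 to 404.6). Medially the sums were 440.4 ± 31.4 TPM in controls (n = 5, 412.9 to 487.1) and 314 ± 14.3 TPM in mutants (n = 4, 293.0 to 322.4). In both regions every mutant library lay below every control library. Marker genes of other cell states moved beside these sums. Of all tested genes 27.6% fell dorsally and 30.2% medially, while 9.93% and 9.44% rose. The 20 pan-neuronal markers summed to 6846 to 8341 TPM in control and 5075 to 7136 TPM in mutant dorsal libraries, and to 5323 to 6725 and 4007 to 5314 TPM medially; 12 of 20 fell dorsally and 13 of 20 medially, and none was at 0. The 10 cycling-cell markers went from 1060 to 1283 TPM up to 1777 to 2404 TPM dorsally and from 1343 to 1655 TPM up to 2220 to 2539 TPM medially, and 10 of 10 rose in both regions. The 17 radial glia markers summed to 3018 to 3400 TPM in control and 2928 to 3192 TPM in mutant dorsal libraries, with 7 higher and 3 lower, and to 3739 to 4602 and 3453 to 3919 TPM medially, with 4 higher and 3 lower. The part of these shifts in the channel values was not tested.

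**Figure D1:**
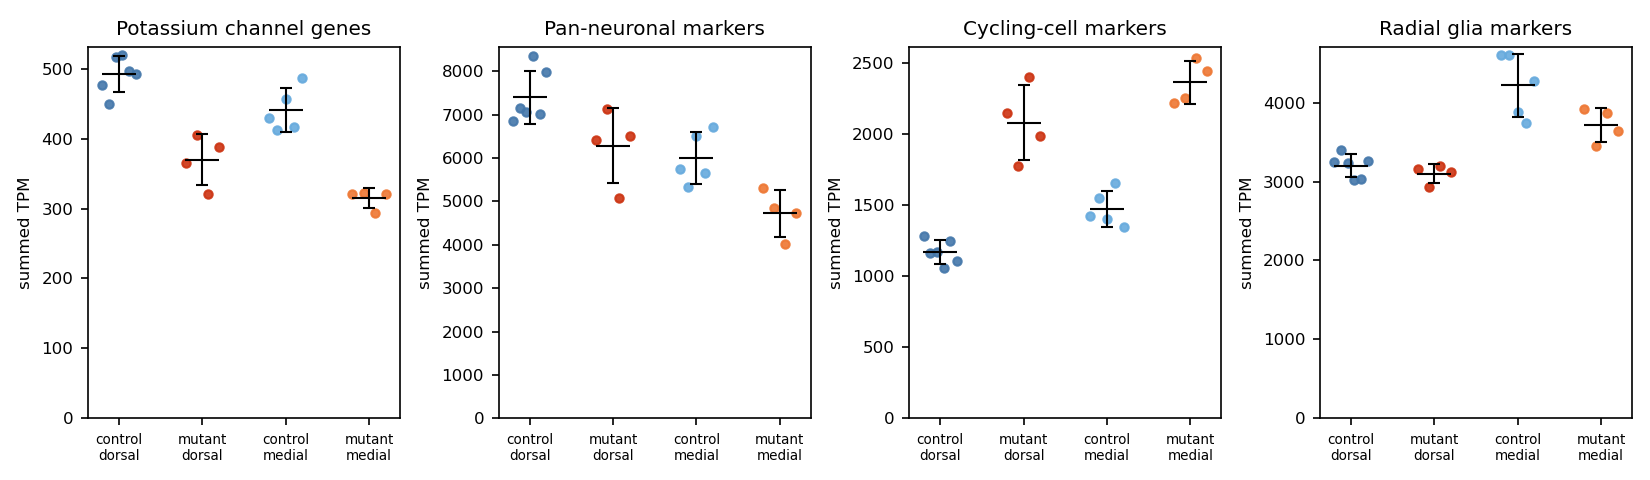
Summed TPM of the 92 potassium channel genes and of 3 marker lists, by library (dots) in the 4 groups; bars are mean ± SD. The potassium channel sums of the mutant libraries lie below those of the control libraries in both regions (320.9 to 404.6 against 449.9 to 519.7 TPM dorsally), the pan-neuronal sums overlap dorsally, and the cycling sums are higher in mutants.

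The mutant comparison asks which channel genes changed with the active Smoothened. In dorsal cortex 24 of 53 tested genes fell, where 27.6% of all tested genes did, and 2 rose, where 9.93% of all did. In medial cortex 29 of 53 fell (30.2% of all genes) and 1 rose (9.44% of all). The median log2 change of the 53 genes was -0.33 dorsally and -0.40 medially, beside -0.10 and -0.11 over all tested genes. All mutant libraries lay below all control libraries for 14 genes dorsally (17.6% of all genes) and 17 medially (22.7%), and above them for 2 (7.25%) and 1 (7.63%). A total of 23 genes fell in both regions, which is 23 of the 24 dorsal and 23 of the 29 medial calls. Pieces with the same title number are taken to come from the same embryo and so are not independent. The share of all tested genes that fell in both regions was not taken, so this overlap is no result about potassium channel genes in particular. Leaving out each of the 19 libraries in turn kept 17 of the 24 dorsal and 22 of the 29 medial decreases in every fit. Dorsal decreases numbered 17 without mutant dorsal library 3. After median-ratio rescaling 18 genes fell dorsally and 24 medially, and after quantile normalization 18 and 19. The share over all genes was not taken for these rescalings. Quantile normalization moved the medial median of all genes by 0.11 on the log2 scale, left the medial calls at 4 higher and 19 lower, and gave a member median of -0.25 relative to all genes, beside -0.29 without it. With male embryos alone 17 genes fell dorsally and 20 medially. Over all 13520 tested genes, calls in either direction went from 5070 to 2876 dorsally and from 5357 to 3086 medially. Single calls were followed through the rescalings, a sex term and males alone only for genes picked by the naming rules given with the processing. Those rules leave out Kcnh7, Kcnn3, Kcnu1, Kcnma1 and Kcnt1, described below. Among the dorsal decreases so followed, Kcna4, Kcnip3, Kcnj10 and Kcnmb4 were lost under both rescalings, with the sex term and in males alone (adjusted p from 0.0612 to 0.185). Kcnc1, Kcnh3 and Kcnn1 were lost in males alone (0.0557 to 0.0720). Medially Kcna2, Kcnmb2 and Kcnv1 were lost under all 4 of these settings (0.0523 to 0.399), and Kcnq3 after quantile normalization (0.135). Kcng1 was lost medially after quantile normalization (0.0876) and in males alone (0.0866). Kcna4, Kcnh2, Kcnj5, Kcnk1 and Kcnmb4 were lost there in males alone (0.0558 to 0.167). Of the 7 calcium- and sodium-activated decreases, 5 dorsal ones remained under each rescaling and 4 in males alone. Medially 5 remained after median-ratio rescaling, 3 after quantile normalization and 5 in males alone. Of the 4 medial ether-a-go-go decreases 3 remained after quantile normalization. The increase of Kcne3 was lost with the sex term (0.108) and in males alone (0.171).

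**Figure D2:**
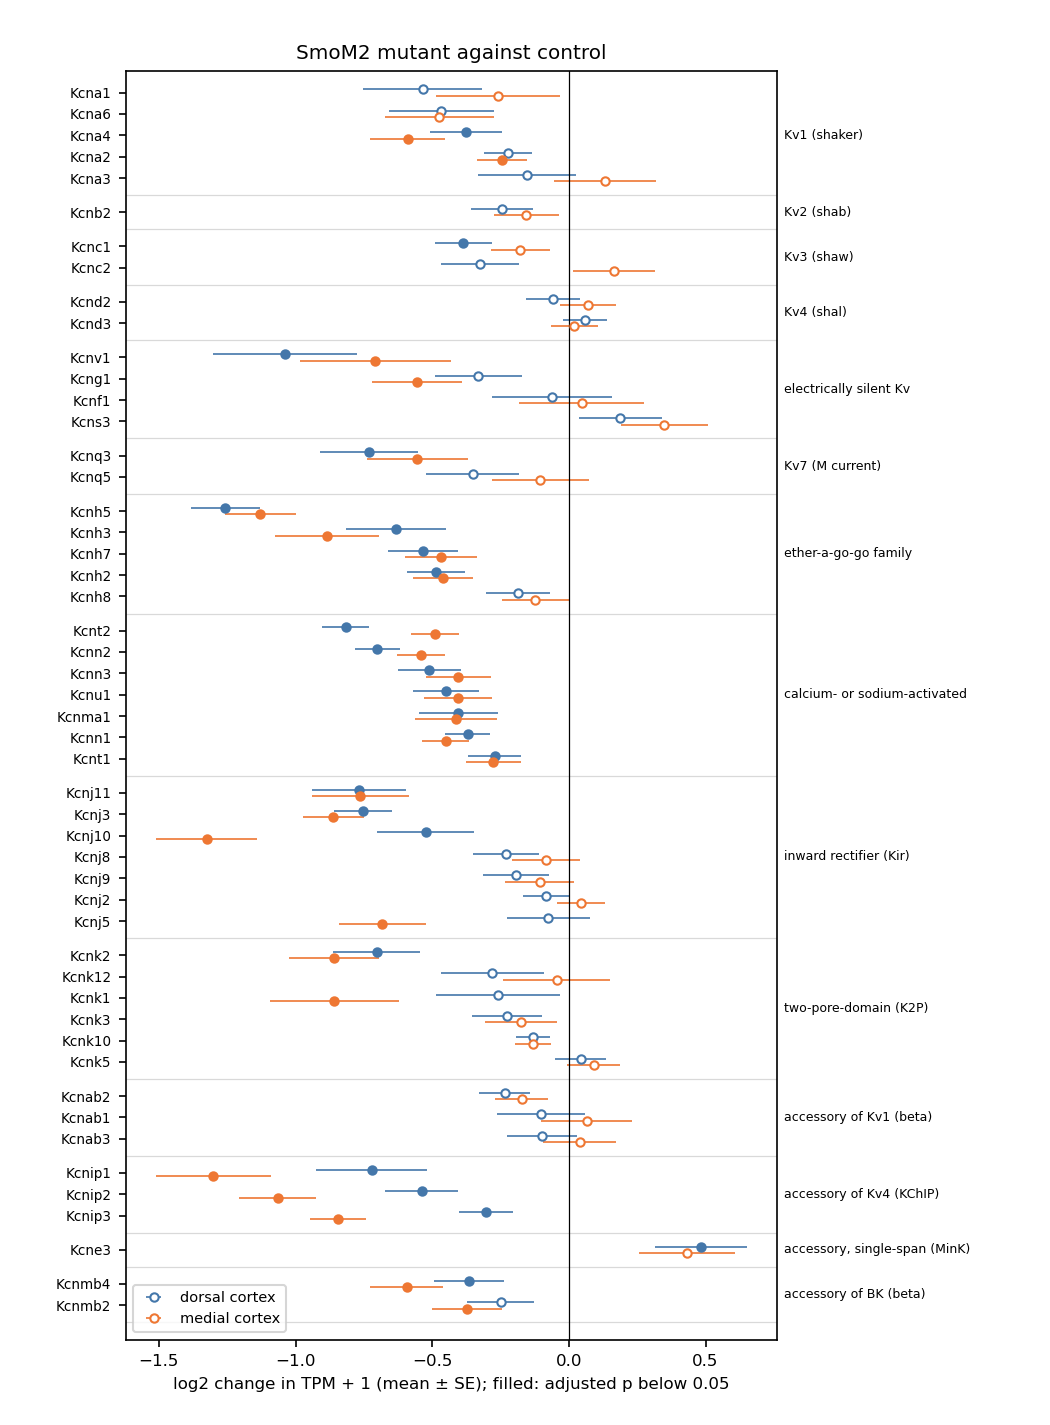
Mutant minus control log2 difference in TPM + 1 (x axis, ± SE from limma) for 50 of the 53 tested potassium channel genes by family (y axis), in dorsal and medial cortex; filled points passed the adjusted p threshold of 0.05. Most points lie left of 0, with Kcnh5 far to the left in both regions (-1.26 and -1.13).

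Family counts here and below stand beside 27.6% lower dorsally and 30.2% lower medially over all tested genes. Of the shaker, shaw and shal Kv genes, 1 of 5 tested Kv1, 1 of 2 Kv3 and 0 of 2 Kv4 genes fell dorsally. Medially 2 of 5, 0 of 2 and 0 of 2 fell. The Kv1 count was not firm: 4 of 5 had a lower level at an unadjusted p under 0.05 dorsally, and without 1 library 0 to 4 of 5 fell, the highest count being without control medial library 6. Of the delayed rectifiers, Kcnb2, which encodes Kv2.2, went from 3.27 ± 0.717 to 2.56 ± 0.0976 TPM dorsally and from 2.72 ± 0.402 to 2.33 ± 0.271 TPM medially, and did not pass the test (-0.25 ± 0.11, adjusted p = 0.0972 and -0.16 ± 0.12, adjusted p = 0.314). It did pass dorsally with a term for sex (-0.35, adjusted p = 0.0261), in male embryos alone (-0.33, adjusted p = 0.0496) and without control dorsal library 2 (-0.31, adjusted p = 0.0309). Kcna3, the most abundant Kv1 gene (Kv1.3), had means of 18.8 ± 2.95 and 16.8 ± 3.03 TPM in control and mutant dorsal cortex, with a log2 change of -0.15 ± 0.18 (adjusted p = 0.539). Kcna4, which encodes the fast-inactivating Kv1.4, fell by 0.38 dorsally (adjusted p = 0.0328) and by 0.59 medially (adjusted p = 0.00252); the dorsal call was lost without control dorsal library 1, 3 or 6 or mutant dorsal library 1, 3 or 4 (adjusted p from 0.0578 to 0.103). Medial Kcna2 passed narrowly at -0.24 ± 0.09 (adjusted p = 0.0401) and did not without control medial library 2, 4 or 6 or mutant medial library 2, 3 or 4 (adjusted p from 0.0606 to 0.118), nor with the embryo as a block (adjusted p = 0.0708). Kcna6 missed the threshold at -0.47 ± 0.19 (adjusted p = 0.0627) and -0.47 ± 0.20 (adjusted p = 0.0664), and passed dorsally with the block (adjusted p = 0.0489) or without control dorsal 1, control medial 6 or mutant dorsal 2 (adjusted p from 0.0350 to 0.0465), and medially in males alone (adjusted p = 0.0430) or without control medial 2, control medial 3 or mutant dorsal 3 (adjusted p from 0.0296 to 0.0486). Of the Kv3 genes, Kcnc1, which encodes Kv3.1 of fast-spiking cells, ran at 4.44 to 6.11 TPM (median 5.22) in the 6 control libraries against 3.21, 3.95, 3.48 and 4.24 TPM in the 4 mutant ones dorsally and fell by 0.39 (adjusted p = 0.00701), with no overlap. Medially its log2 change was -0.18 ± 0.11 (adjusted p = 0.200). Its relative Kcnc2 (Kv3.2) had -0.32 ± 0.14 (adjusted p = 0.0831) dorsally and 0.17 ± 0.15 (adjusted p = 0.402) medially. Dorsal Kcnc2 passed with the sex term (-0.45, adjusted p = 0.0257), without control dorsal library 2 (-0.39, adjusted p = 0.0359) and without mutant medial library 3 (-0.32, adjusted p = 0.0462). The Kv4 genes Kcnd2 and Kcnd3, whose channels carry the A-type current, had 0 of 2 calls in either region: Kcnd3 averaged 14.51 ± 1.58, 15.2 ± 1.91, 12.8 ± 0.592 and 13.0 ± 0.928 TPM in dorsal controls, dorsal mutants, medial controls and medial mutants. In limma 0 of 2 had an unadjusted p under 0.05 in either region, and quantile normalization called Kcnd2 higher medially (0.24, adjusted p = 0.0466).

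Kcnv1 is a member of the electrically silent group, subunits that form no channel alone and modify Kv2 channels when they join them. Its dorsal levels were 15.98 to 21.8 TPM (median 18.9) in the 6 control libraries against 6.30, 10.6, 4.69 and 16.8 TPM in the 4 mutant ones. Mutant library 4 reached into the control range while the other three lay well below it, and the log2 change was -1.04 ± 0.26 (adjusted p = 0.00523). Medially it went from 6.996 ± 2.12 to 3.91 ± 1.57 TPM with an adjusted p of 0.0486, a call that 13 of the 19 fits without 1 library lost: each of control dorsal 1 to 6, control medial 4 to 6, mutant dorsal 2 and mutant medial 1 to 3 (adjusted p up to 0.140). Kcng1, another silent subunit gene, fell medially (-0.56 ± 0.17, adjusted p = 0.0125), though not after quantile normalization (adjusted p = 0.0876) or in males alone (adjusted p = 0.0866), with no overlap between 3.83, 4.04, 4.14, 4.11 and 4.60 TPM in controls and 2.21, 2.64, 1.99 and 3.30 TPM in mutants. Dorsally its log2 change was -0.33 ± 0.16 (adjusted p = 0.111), and without mutant dorsal library 2, at 7.73 TPM, it was -0.50 (adjusted p = 0.0158). The Kv7 genes make the M current, which damps repetitive firing. Kcnq3 ran at 11.7 to 19.1 TPM (median 17.3) in the 6 control libraries against 7.85, 11.9, 6.72 and 11.9 TPM in the 4 mutant ones dorsally, where control library 2 lay within the mutant range, with log2 changes of -0.73 ± 0.18 (adjusted p = 0.00396) and -0.55 ± 0.19 (adjusted p = 0.0239). The medial Kcnq3 call did not survive leaving out control medial 6, mutant medial 1 or mutant medial 3 (adjusted p from 0.0624 to 0.0869). Kcnq5 passed in neither region.

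The ether-a-go-go family held the largest decrease among the dorsal calls. Kcnh5 (Kv10.2, a slowly activating channel of neurons; chromosome 12, 74897220 to 75177332, GRCm38) ran at 5.47 to 6.74 TPM (median 6.06) in the 6 control libraries against 1.31, 2.00, 1.85 and 2.89 TPM in the 4 mutant ones dorsally. In medial cortex it ran at 3.95, 2.73, 4.13, 4.50 and 4.19 TPM in the 5 control libraries against 1.09, 1.14, 1.36 and 1.30 TPM in the 4 mutant ones. No mutant library reached the control range in either region, and the log2 changes were -1.26 ± 0.13 (adjusted p = 5.79e-07) and -1.13 ± 0.13 (adjusted p = 4.38e-06). Both calls held without any 1 library. In the family as a whole 4 of 5 tested genes fell in each region: Kcnh5, Kcnh3, Kcnh2 and Kcnh7. Kcnh2, the Erg1 gene known from cardiac repolarisation, went from 5.19 ± 0.671 to 3.44 ± 0.706 TPM dorsally and from 4.21 ± 0.393 to 2.78 ± 0.209 TPM medially, with no overlap in either. Kcnh3, which encodes the forebrain Elk channel Kv12.2, fell by 0.63 and 0.89 (adjusted p = 0.0111 and 0.00130); it overlaps Mcrs1, a gene at a mean of 179 TPM on the other strand, so its values are uncertain. Kcnh7 likewise shares its locus with Gca (9.56 TPM) and Gm13569 (2.53 TPM) on the other strand, and fell by 0.53 and 0.47. Kcnh8 averaged 2.09 ± 0.334 and 1.72 ± 0.314 TPM dorsally and passed in neither region. With male embryos alone 3 of 5 fell in each region, and after quantile normalization 3 of 5 fell medially.

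All 7 tested genes of the family of calcium- and sodium-activated channels fell in both regions, where 27.6% and 30.2% of all tested genes did. The family medians were -0.45 dorsally and -0.41 medially, beside -0.10 and -0.11 over all tested genes. The family was set by symbol prefix, so Kcnu1 is in it by name rather than by how its channel opens. Kcnt2, which encodes the sodium-activated channel Slick, ran at 4.38 to 6.45 TPM (median 5.56) in the 6 control libraries against 2.93, 2.78, 2.24 and 2.75 TPM in the 4 mutant ones dorsally. Medially it ran at 4.36, 4.36, 4.31, 4.44 and 3.89 TPM in the 5 control libraries against 3.10, 2.59, 2.55 and 2.79 TPM in the 4 mutant ones. Mutant and control libraries did not overlap in either region, and the log2 changes were -0.82 ± 0.09 (adjusted p = 9.91e-07) and -0.49 ± 0.09 (adjusted p = 0.000335). Small-conductance (SK) channels carry the current that follows action potentials. Kcnn2 (SK2) ran at 10.7 to 13.5 TPM (median 12.4) in the 6 control libraries against 6.48, 6.96, 7.44 and 7.84 TPM in the 4 mutant ones dorsally. In medial cortex the same gene had 9.90, 9.05, 11.4, 10.5 and 11 TPM in the 5 control libraries against 6.17, 7.27, 6.14 and 7.72 TPM in the 4 mutant ones. It too showed no overlap, with log2 changes of -0.70 ± 0.08 (adjusted p = 4.92e-06) and -0.54 ± 0.09 (adjusted p = 0.000119). Kcnn1 (SK1), the most abundant of them, went from 29.2 ± 3.70 to 22.3 ± 1.82 TPM dorsally, overlapping, and from 29.0 ± 1.90 to 20.9 ± 0.644 TPM medially, not overlapping (-0.37 ± 0.08, adjusted p = 0.00201 and -0.45 ± 0.09, adjusted p = 0.000503); A230052G05Rik lies across it on the other strand at 2.21 TPM. Kcnn3 (SK3) fell by 0.51 and 0.40, and Kcnu1, a relative of BK best known from sperm, by 0.45 and 0.41. Kcnma1, the BK channel itself, was low (2.95 ± 0.661 and 2.01 ± 0.667 TPM dorsally) and fell by 0.40 and 0.41. Kcnt1 (Slack) was lower still and fell by 0.27 and 0.28. These last calls were the weak ones: over the fits without 1 library 5 to 7 of 7 genes fell dorsally and 4 to 7 medially. Kcnma1 was lost without control dorsal 4 or 5 or mutant dorsal 1 or 3 (up to an adjusted p of 0.173) and medially without control medial 4 to 6 or mutant medial 1 to 3 (up to 0.0914). Kcnt1 was lost without control dorsal 1, 3, 4 or 5 or mutant dorsal 1, 3 or 4 (up to 0.0926), medially without control medial 4 to 6 or mutant medial 1 or 2 (up to 0.0974), and in both regions with the embryo as a block (adjusted p = 0.0612 and 0.0530); medial Kcnu1 was lost without mutant medial library 2 (0.0528). Quantile normalization left 5 and 3 of 7, and male embryos alone 4 and 5.

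Inward rectifiers split by gene. Kcnj11 encodes Kir6.2, the pore of the ATP-sensitive channel, which ties membrane potential to metabolism (chromosome 7, 46093953 to 46100764, GRCm38). Its dorsal levels were 45.6 to 51.0 TPM (median 48.3) in the 6 control libraries against 25.4, 36.3, 21.0 and 30.9 TPM in the 4 mutant ones. All 4 mutant libraries lay below all 6 controls, and the log2 change was -0.77 ± 0.17 (adjusted p = 0.00200). Medial levels were 25.7, 21.1, 32.8, 32.4 and 37.5 TPM in the 5 control libraries against 12.7, 24.6, 13.9 and 18.5 TPM in the 4 mutant ones; here mutant library 2 lay within the control range, and the change was -0.76 ± 0.18 (adjusted p = 0.00249). Abcc8, which encodes the sulfonylurea receptor that surrounds this pore, is no Kcn gene and was picked out after its values were seen. It went from 46.9 ± 6.07 to 25.4 ± 5.79 TPM dorsally and from 20.1 ± 5.51 to 12.7 ± 3.87 TPM medially, log2 changes of -0.87 ± 0.20 (adjusted p = 0.00223) and -0.63 ± 0.21 (adjusted p = 0.0213). The second pore gene of this class, Kcnj8, averaged 5.44 ± 0.247 and 4.64 ± 1.41 TPM dorsally and did not pass. Kcnj3 encodes Kir3.1, a subunit of the channels opened by G protein-coupled receptors. It ran at 17.5 to 21.6 TPM (median 19.6) in the 6 control libraries against 10.8, 12.3, 9.0 and 12.9 TPM in the 4 mutant ones dorsally. The medial values were 16.01, 15.2, 17.1, 13.3 and 19.1 TPM in the 5 control libraries against 7.79, 9.31, 6.92 and 9.73 TPM in the 4 mutant ones. The groups were apart in both regions, with log2 changes of -0.75 ± 0.11 (adjusted p = 3.1e-05) and -0.86 ± 0.11 (adjusted p = 1.29e-05). Its partner subunit genes Kcnj9 and Kcnj6 were at most 1.74 and 0.108 TPM in any library, and Kcnj5, the partner best known from heart, fell medially from 2.17 ± 0.5003 to 1.007 ± 0.546 TPM (-0.68 ± 0.16, adjusted p = 0.00237).

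Kcnj10 encodes Kir4.1, the glial channel that clears extracellular potassium (chromosome 1, 172341210 to 172374085, GRCm38). In medial cortex it ran at 14.3, 14.6, 11.3, 7.82 and 15.4 TPM in the 5 control libraries against 6.74, 3.85, 3.44 and 3.87 TPM in the 4 mutant ones. Mutant library 1 stood above the other three mutants but still below the lowest control, and the log2 change was -1.33 ± 0.18 (adjusted p = 2.93e-05). Dorsal levels were lower and closer, 4.39 to 5.93 TPM (median 4.85) in the 6 control libraries against 4.49, 3.06, 2.91 and 2.53 TPM in the 4 mutant ones. The dorsal log2 change was -0.52 ± 0.18 (adjusted p = 0.0263), lost without control dorsal library 1 or 3 or mutant dorsal library 2, 3 or 4 (adjusted p from 0.0508 to 0.0854). Kcnj9, which lies head to head with it at a distance of 11.9 kb, averaged 1.30 ± 0.357, 0.996 ± 0.197, 1.008 ± 0.207 and 0.863 ± 0.174 TPM in dorsal controls, dorsal mutants, medial controls and medial mutants and did not pass. Kcnj2 (Kir2.1, the classical strong rectifier) averaged between 2.77 and 3.52 TPM in all 4 groups and did not pass in either region.

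Of the K2P leak channels, Kcnk10 was the most abundant member of all. It did not pass in either region in the fit without a block or with the embryo as a block. It encodes TREK-2, which responds to stretch, lipids and temperature. Its dorsal levels were 52.8 to 59.8 TPM (median 57.3) in the 6 control libraries against 57.5, 54.4, 46.9 and 49.1 TPM in the 4 mutant ones. Medially they were 64.9, 60.8, 63.6, 58.4 and 71.9 TPM in the 5 control libraries against 64.1, 58.3, 55.2 and 55.3 TPM in the 4 mutant ones. The groups overlapped in both regions, with log2 changes of -0.13 ± 0.06 (adjusted p = 0.113) and -0.13 ± 0.07 (adjusted p = 0.123). With title number as a block, which also joins unrelated embryos across genotypes, Kcnk10 was called lower in both (-0.13, adjusted p = 0.0244, and -0.16, adjusted p = 0.0150). It was also called lower dorsally without mutant dorsal library 1 (-0.18, adjusted p = 0.0455) and medially without mutant medial library 1 (-0.18, adjusted p = 0.0488). Its close relative Kcnk2 (TREK-1) fell in both. A430027H14Rik lies across Kcnk2 on the other strand at a mean of 1.13 TPM, so the Kcnk2 values are uncertain. Kcnk2 ran at 4.99 to 6.97 TPM (median 6.04) in the 6 control libraries against 2.60, 3.99, 2.77 and 3.94 TPM in the 4 mutant ones dorsally, with no overlap. In medial cortex it ran at 7.69, 6.20, 5.58, 4.52 and 6.51 TPM in the 5 control libraries against 4.64, 1.93, 2.68 and 2.68 TPM in the 4 mutant ones, where mutant library 1 lay just above the lowest control. The log2 changes were -0.70 ± 0.16 (adjusted p = 0.00221) and -0.86 ± 0.17 (adjusted p = 0.000544). Kcnk1 (TWIK-1) fell medially from 6.59 ± 2.33 to 3.22 ± 1.61 TPM (-0.86 ± 0.24, adjusted p = 0.00759), with the groups overlapping, and had -0.26 ± 0.23 (adjusted p = 0.399) dorsally. Kcnk5 (TASK-2, an alkaline-activated channel) did not pass: 8.89 ± 1.23 against 9.16 ± 0.960 TPM dorsally and 11.96 ± 1.33 against 12.7 ± 0.637 TPM medially. Kcnk3 and Kcnk12 averaged at most 1.15 and 1.68 TPM in any group and passed in neither region.

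Accessory subunits differed by family. The KChIPs, calcium-binding proteins that escort Kv4 channels to the membrane, fell in 3 of 3 tested genes in both regions, while the Kv4 pore genes described above had no call. Kcnip3 (KChIP3, also known as the transcriptional repressor DREAM) ran at 21.2 to 27.1 TPM (median 26.6) in the 6 control libraries against 22.1, 17.7, 20.5 and 22.2 TPM in the 4 mutant ones dorsally. Its medial values were 47.4, 52.3, 39.4, 34.9 and 45.9 TPM in the 5 control libraries against 25.9, 24.4, 21.4 and 23.7 TPM in the 4 mutant ones. All medial mutants lay below all medial controls, and the log2 changes were -0.30 ± 0.10 (adjusted p = 0.0221) dorsally and -0.85 ± 0.10 (adjusted p = 7.13e-06) medially; the dorsal call was lost without mutant dorsal library 2 or 3 (adjusted p = 0.0853 and 0.0504). Kcnip1 ran at 4.82 to 6.73 TPM (median 6.13) in the 6 control libraries against 3.15, 3.07, 2.90 and 3.66 TPM in the 4 mutant ones dorsally. In medial cortex it had 20.02, 8.28, 13.9, 9.13 and 15.96 TPM in the 5 control libraries against 7.503, 3.27, 4.45 and 3.97 TPM in the 4 mutant ones. No library overlapped in either region, with log2 changes of -0.72 ± 0.20 (adjusted p = 0.00958) and -1.30 ± 0.21 (adjusted p = 0.000126). Kcnip2 went from 2.55 ± 0.340 to 1.44 ± 0.217 TPM dorsally and from 4.39 ± 1.05 to 1.57 ± 0.472 TPM medially, again without overlap (-0.54 ± 0.13, adjusted p = 0.00444 and -1.07 ± 0.14, adjusted p = 1.63e-05). Kcnip4 stayed below 1 TPM. The 3 Kv1 beta subunit genes had 0 calls of 3 in either region in limma, with 1 dorsally and 0 medially at an unadjusted p under 0.05: Kcnab2, the most abundant, averaged 7.93 ± 1.07, 6.54 ± 0.259, 7.58 ± 0.883 and 6.61 ± 0.658 TPM in the 4 groups, and shares its locus with Nphp4 (5.90 TPM) on the other strand. Dorsal Kcnab2 was at an adjusted p of 0.0544, and at 0.0496 with the embryo as a block. Without control dorsal 1, control dorsal 5 or control medial 5 it lay between 0.0182 and 0.0480. With title number as a block, which also joins unrelated embryos across genotypes, it was at 0.0231. Kcnmb4, the neuronal BK beta subunit, fell medially from 13.1 ± 1.61 to 8.40 ± 1.37 TPM (-0.59 ± 0.13, adjusted p = 0.00194); dorsally the change of -0.37 ± 0.13 (adjusted p = 0.0326) was lost without control dorsal library 3, 4 or 6 or mutant dorsal library 1 or 3 (adjusted p up to 0.164) and with the block (0.0528), and the antisense transcript Kcnmb4os2 overlaps it at 3.01 TPM. Kcnmb2 fell medially (-0.37 ± 0.13, adjusted p = 0.0264), which did not pass when control medial 4, mutant medial 2 or mutant medial 3 was left out (adjusted p up to 0.115). Kcne3, a single-span subunit, rose dorsally: 0.253 to 0.848 TPM (median 0.728) in the 6 control libraries against 1.24, 1.04, 1.81 and 0.935 TPM in the 4 mutant ones. The libraries did not overlap, yet the change of 0.48 ± 0.17 (adjusted p = 0.0322) was lost without control dorsal library 2 or 4 or mutant dorsal library 1 or 3 (adjusted p up to 0.132) and with the block (0.0642); medially it was 0.43 ± 0.18 (adjusted p = 0.0597), and it passed there after median-ratio rescaling (0.0434), after quantile normalization (0.0236) and without control medial 4 or mutant medial 1 (0.0297 and 0.0309).

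**Figure D3:**
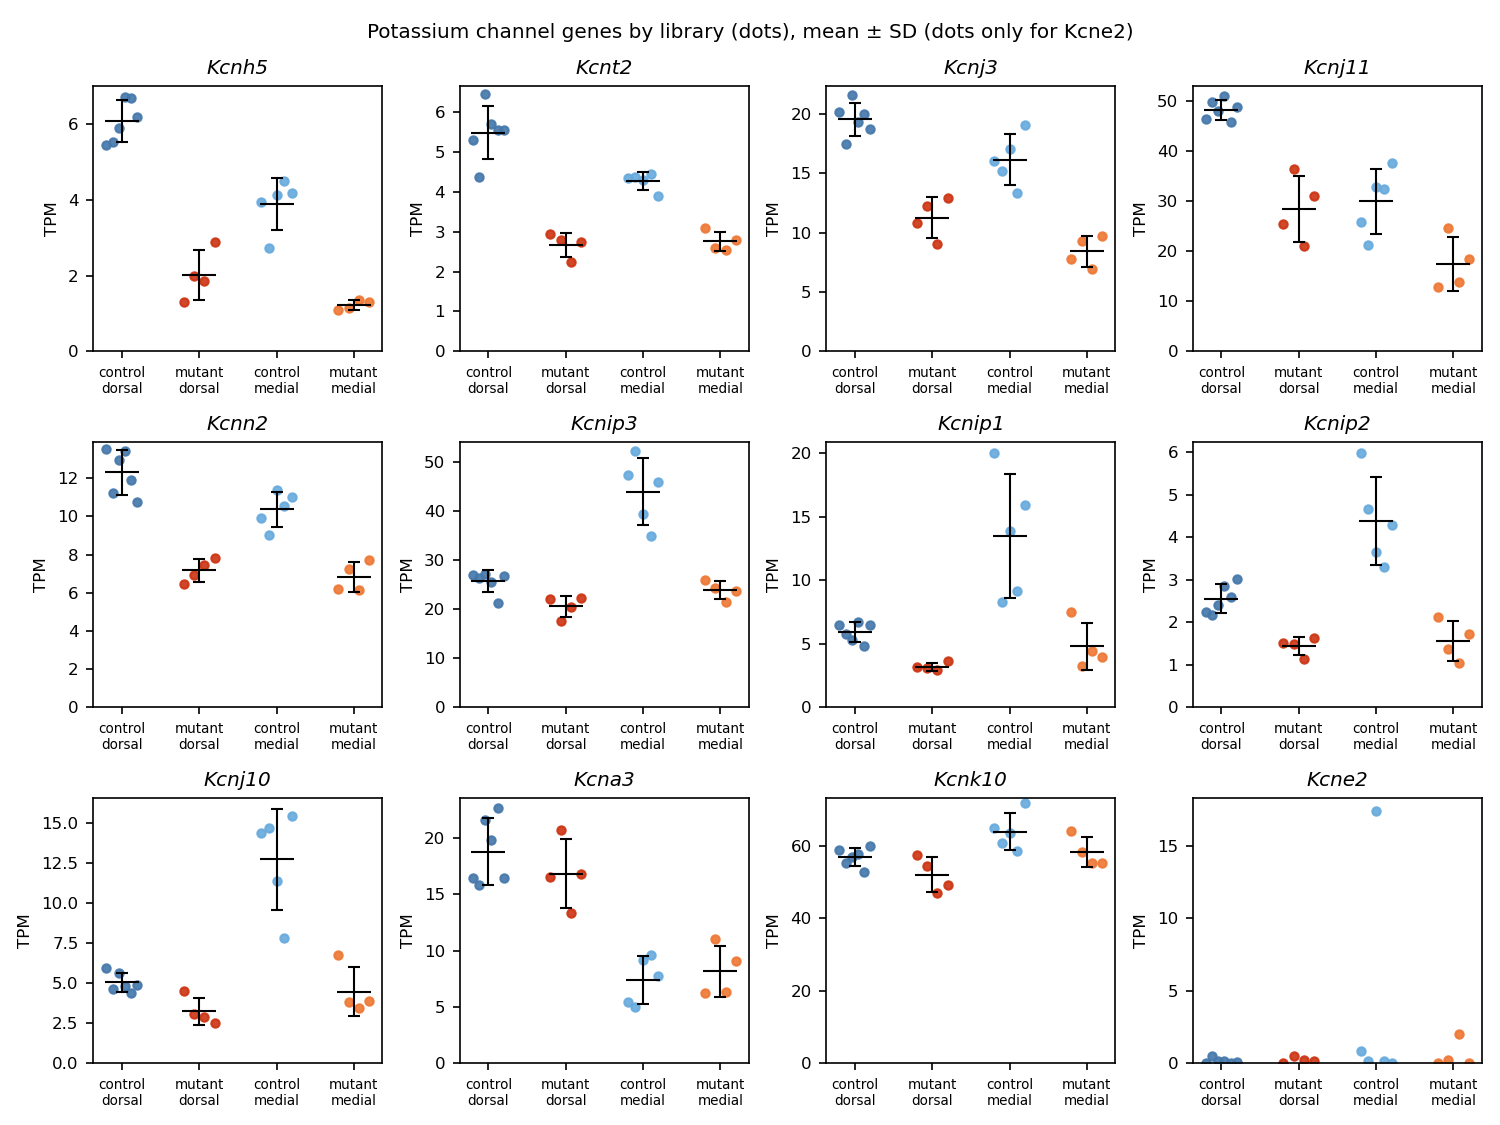
TPM of 12 potassium channel genes by library (dots) in the 4 groups; bars are mean ± SD, left out for Kcne2. Kcnh5, Kcnt2, Kcnj3, Kcnn2, Kcnip1 and Kcnip2 are lower in mutants with no overlap in both regions, Kcnk10 overlaps, and Kcne2 is near 0 except for control medial library 4 (17.4 TPM) and mutant medial library 3 (2.04 TPM).

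Upstream sequence was read for every member with a promoter entry, to show what lies before their starts, and 3 windows are printed as examples. RefSeq promoter entries (build GRCm38.p6) matched 67 of the 92 genes with 92 start sites, out of 32851 entries in all, and the 250 bases upstream of each start were searched on both strands. The GLI letters GACCACCCA, to which the Hedgehog-regulated GLI factors are known to bind, were in 0.225% of all upstream windows and in 0 of 92 of these. The letters TTTGGCGC of E2F, a factor family of proliferating cells, were in 0.417% of all and in 1 of 92, at Kcnh5. TTCAGCACC, the left arm of the element bound by the neuronal repressor REST, was in 0.301% of all and in 1, at Kcnh6. CCAAT was in 33.8% of all and in 27 of 92, TATAAA in 12.4% and 3, and the cyclic AMP element TGACGTCA in 1.55% and 0. None of these motifs overlapped another in the windows below. Matches are descriptions of letters and say nothing of binding in this tissue. The 3 windows shown belong to the gene with the largest dorsal decrease (Kcnh5, chr12:75177333-75177582, minus strand, E2F letters in capitals), to the glial Kir gene (Kcnj10, chr1:172340960-172341209, plus strand) and to a KChIP gene that fell in both regions (Kcnip2, chr19:45816064-45816313, minus strand), both with CCAAT or its complement in capitals; each runs 5′ to 3′ towards the start site.
Kcnh5: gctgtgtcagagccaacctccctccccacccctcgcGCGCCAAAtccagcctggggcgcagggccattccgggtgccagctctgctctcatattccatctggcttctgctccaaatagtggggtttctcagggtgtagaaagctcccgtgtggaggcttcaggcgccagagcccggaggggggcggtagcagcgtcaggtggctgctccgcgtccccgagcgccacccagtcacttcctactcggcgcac
Kcnj10: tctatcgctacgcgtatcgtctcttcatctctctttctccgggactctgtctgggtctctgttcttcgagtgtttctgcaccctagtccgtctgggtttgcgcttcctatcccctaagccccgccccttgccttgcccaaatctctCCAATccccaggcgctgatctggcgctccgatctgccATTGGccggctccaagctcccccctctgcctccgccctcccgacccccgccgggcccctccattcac
Kcnip2: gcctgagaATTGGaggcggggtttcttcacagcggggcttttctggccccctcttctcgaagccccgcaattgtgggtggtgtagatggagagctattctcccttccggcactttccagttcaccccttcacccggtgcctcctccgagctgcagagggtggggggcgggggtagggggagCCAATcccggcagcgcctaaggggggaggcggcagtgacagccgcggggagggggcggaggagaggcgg

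The regional comparison asks how medial cortex differed from dorsal cortex. In controls, 25 of 53 tested genes were lower medially, where 14.9% of all tested genes were, and 8 were higher, where 17.6% of all were; the medians were -0.27 for the members and 0.01 for all genes. Libraries did not overlap for 12 lower (9.39% of all genes) and 5 higher members (11.1%). Leaving out each library in turn kept 18 of the 25 lower and 7 of the 8 higher calls in every fit. The lower group was led by Kv genes. Kcna3 ran at 15.9 to 22.7 TPM (median 18.1) dorsally and at 5.45, 5.01, 9.17, 9.61 and 7.71 TPM medially, with no overlap and a log2 difference of -1.26 ± 0.17 (adjusted p = 6.52e-05). Kcnv1 was lower by the widest margin, at -1.35 ± 0.25 (adjusted p = 0.000615), from 18.9 ± 2.48 to 6.996 ± 2.12 TPM. Kcnq3 differed by -1.14 ± 0.17 (adjusted p = 0.000123), Kcna6 by -0.87 ± 0.18 (adjusted p = 0.00135) and Kcnj11 by -0.70 ± 0.16 (adjusted p = 0.00309). The Kv1 beta subunit gene Kcnab1 was at 1.58 to 2.32 TPM (median 1.97) dorsally and 0.354, 0.347, 0.640, 0.470 and 0.521 TPM medially (-1.01 ± 0.15, adjusted p = 0.000129). Of 5 tested Kv1 genes 3 were lower medially, Kcna1, Kcna3 and Kcna6, and of 3 tested Kv1 beta genes 2 were, Kcnab1 and Kcnab3. The Kcna1 call was lost without control dorsal library 5 or control medial library 2, 3 or 4 (adjusted p up to 0.0719).

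Those higher in medial control cortex were the 3 KChIP genes, 2 Kir genes and 3 K2P genes. Kcnj10 went from 4.39 to 5.93 TPM (median 4.85) dorsally to 14.3, 14.6, 11.3, 7.82 and 15.4 TPM medially, a log2 difference of 1.15 ± 0.17 (adjusted p = 0.000101) with no overlap. Kcnip1 differed by 1.00 ± 0.19 (adjusted p = 0.000793), Kcnip3 by 0.75 ± 0.09 (adjusted p = 3.71e-05) and Kcnip2 by 0.59 ± 0.13 (adjusted p = 0.00188), also without overlap. Kcnk1 was at 2.13 to 3.64 TPM (median 2.60) dorsally and 8.60, 7.59, 5.03, 3.30 and 8.43 TPM medially, overlapping through control medial library 5 (0.95 ± 0.21, adjusted p = 0.00241). Kcnj5 rose from 0.770 ± 0.212 to 2.17 ± 0.5003 TPM (0.83 ± 0.14, adjusted p = 0.000363). Kcnk5 was higher by 0.39 ± 0.09 (adjusted p = 0.00228), and Kcnk10 by 0.16 ± 0.06 (adjusted p = 0.0425), a call lost without control dorsal library 2, 3, 4 or 5, control medial library 2, 4 or 6 or mutant medial library 2 (adjusted p up to 0.128). Beside these differences, 12 of 17 radial glia markers were higher and 2 lower medially in controls, 7 of 8 tested Cajal-Retzius markers were higher and 1 lower, and 12 of 20 pan-neuronal markers were lower and 1 higher. Interneuron markers were lower in 9 of 13 and higher in 2, with a median log2 difference of -0.91, and cycling markers were higher in 9 of 10. The Cajal-Retzius list summed to 81.7 to 96.2 TPM dorsally and 128 to 207 TPM medially. Of all tested genes 17.6% were higher and 14.9% lower medially in controls. The part of these marker genes in the regional values was not tested. With the embryo as a block 31 genes were lower (22.4% of all) and 9 higher (26.5%). In the male control embryos alone, 3 dorsal and 2 medial libraries, limma called 0 members and 10 of 13520 genes, with 13 members lower and 5 higher at an unadjusted p of 0.05; with a term for sex the calls were 24 lower and 8 higher.

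**Figure D4:**
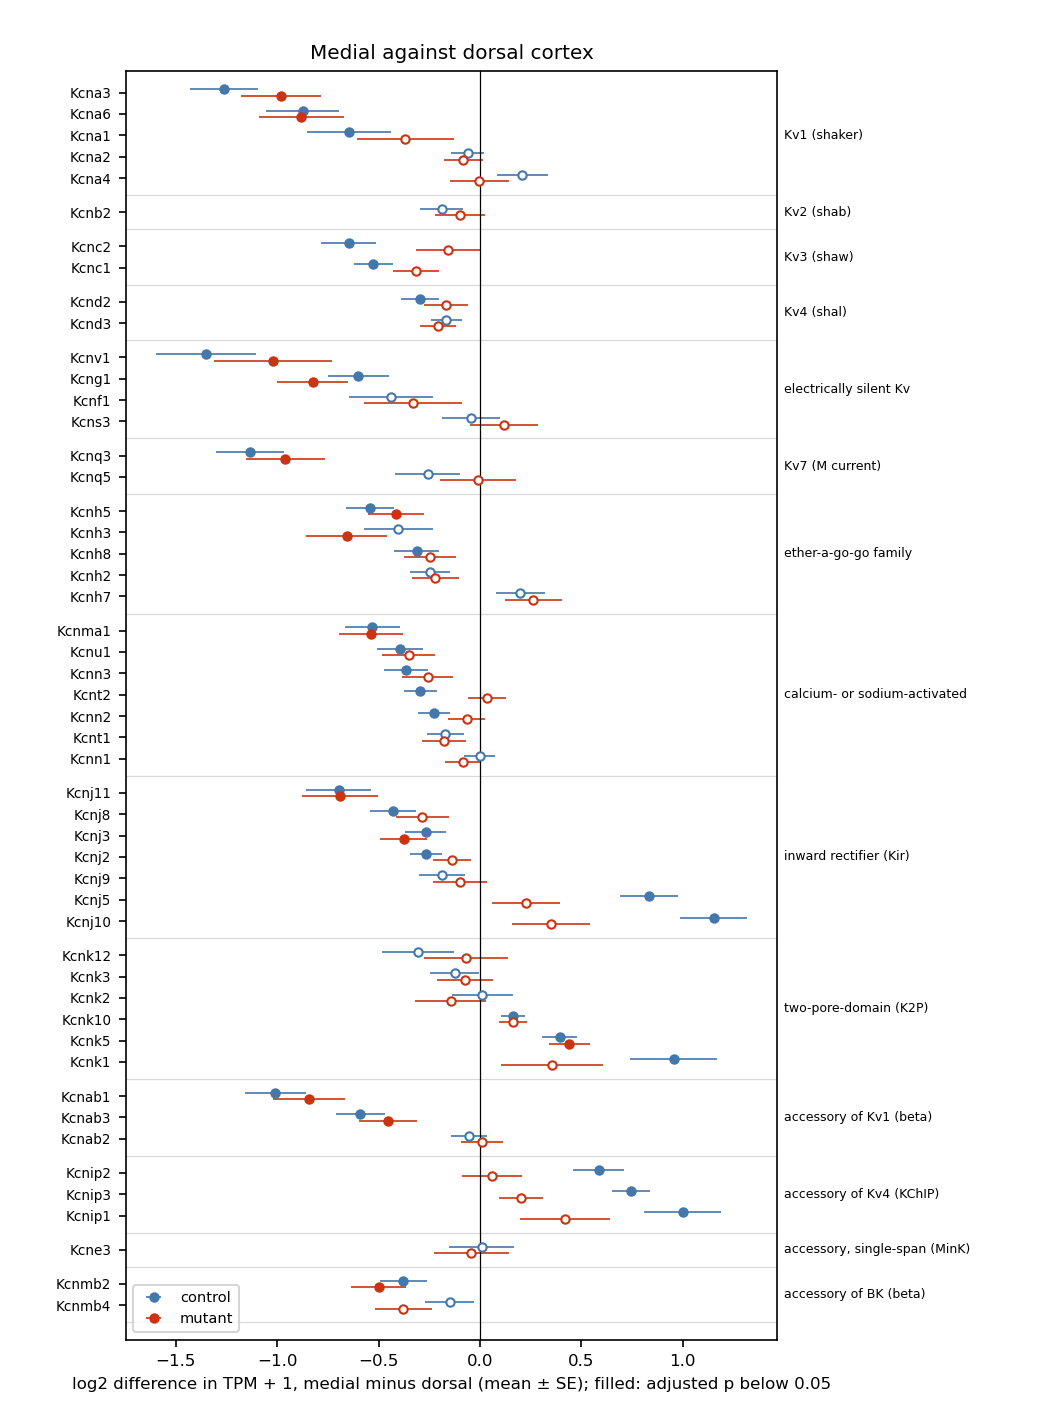
Medial minus dorsal log2 difference in TPM + 1 (x axis, ± SE from limma) for 50 of the 53 tested potassium channel genes by family (y axis), in control and mutant cortex; filled points passed the adjusted p threshold of 0.05. In controls the 3 KChIP genes, Kcnj5, Kcnj10 and Kcnk1 lie well right of 0 and the mutant points of these 6 lie closer to 0, while Kcna3, Kcnv1 and Kcnq3 lie left of 0 in both.

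In mutants, 15 of 53 genes were lower medially (10.8% of all genes) and 1 was higher (8.03% of all), with no overlap for 7 (8.05%) and 1 (7.11%). The largest differences again belonged to Kcnv1 (-1.02 ± 0.29, adjusted p = 0.0201), Kcna3 (-0.98 ± 0.20, adjusted p = 0.00411), Kcnq3 (-0.96 ± 0.20, adjusted p = 0.00437), Kcna6 (-0.88 ± 0.21, adjusted p = 0.00812), Kcnab1 (-0.84 ± 0.18, adjusted p = 0.00469) and Kcng1 (-0.82 ± 0.17, adjusted p = 0.00501). Kcnv1 was lost without mutant dorsal library 2 or 4 or mutant medial library 3 (adjusted p up to 0.0834). Kcnk5 was the 1 member called higher, at 0.44 ± 0.10 (adjusted p = 0.00708). The KChIP genes, Kcnj10, Kcnj5 and Kcnk1, which were higher medially in controls, did not pass in mutants without a block: Kcnj10 had 0.35 ± 0.19 (adjusted p = 0.223), Kcnip1 0.42 ± 0.22 (adjusted p = 0.202) and Kcnip3 0.20 ± 0.11 (adjusted p = 0.206). The count depended on single libraries and on the fit, and 6 of the 15 lower calls held in every fit without 1 library. Lower calls numbered 6 without mutant dorsal library 2, 7 without mutant dorsal library 4 and 6 without mutant medial library 3. With the embryo as a block there were 21 lower (20.7% of all genes) and 5 higher (18.4%), the latter being Kcnk5, Kcnk10, Kcnh7, Kcnip3 and Kcnj10. With the mutant libraries fitted alone limma called 0 members and 0 of 13520 genes, while 19 members were lower and 2 higher at an unadjusted p of 0.05. Beside these differences among mutants, 15 of 20 pan-neuronal markers were lower medially and none higher (median -0.48), 10 of 13 interneuron markers were lower and 1 higher (median -1.30), and 8 of 17 radial glia markers were higher and none lower; their part in the channel values was not tested.

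Whether the mutant effect itself differed between medial and dorsal cortex was tested as the interaction. In limma without a block 0 of 53 members passed (0.0074% of all genes called higher and 0% lower), and 4 lower and 2 higher members had an unadjusted p under 0.05; the median difference was 0.05 for members and -0.02 for all genes. With the embryo as a block, which takes the dorsal and medial piece of an embryo together, 2 members passed, both with the larger decrease medially (0.185% of all genes called lower and 0.178% higher). They were Kcnip3, with a difference of -0.55 ± 0.10 (adjusted p = 0.0141), and Kcnj10, with -0.82 ± 0.17 (adjusted p = 0.0439). Both had been higher in medial than in dorsal control libraries, and the regional difference among mutant libraries passed for both with the block (adjusted p = 0.0345 and 0.0396) and for neither without it, 20.6 ± 2.14 and 23.8 ± 1.87 TPM for Kcnip3 and 3.25 ± 0.855 and 4.48 ± 1.52 TPM for Kcnj10.

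Kcne2 and Kcnj13, whose products are known from the choroid plexus, the epithelium that secretes cerebrospinal fluid, followed single libraries. Kcne2 ran at 0.830, 0.193, 17.4, 0.134 and 0 TPM in control medial libraries 2 to 6, and Kcnj13 at 0.330, 0.0671, 3.96, 0 and 0.0979 TPM. In the mutant medial libraries Kcne2 had 0, 0.219, 2.04 and 0.0459 TPM. The same 2 libraries, control medial 4 and mutant medial 3, held most of the choroid plexus marker Ttr, with 934 and 161 TPM. The 11 choroid plexus markers summed to 988 TPM in control medial library 4 and 177 TPM in mutant medial library 3, against 7.88 to 69.3 TPM in the other control medial and 6.92 to 23.9 TPM in the other mutant medial libraries. Neither gene passed the filter on level. Kcnj13 overlaps Gigyf2 (26.0 TPM) on the other strand. Leaving out control medial library 4 gave 24 lower and 2 higher members in the medial mutant comparison, and leaving out mutant medial library 3 gave 24 and 1. Ttr, Kcne2 and Kcnj13 were picked out after their values were seen.

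Other gene lists of membrane excitability were read beside the potassium channels. The shares over all tested genes were 27.6% lower and 9.93% higher dorsally, and 30.2% and 9.44% medially. Of 16 tested partner genes outside the Kcn names, scaffolds and auxiliary subunits, 11 fell dorsally and 9 medially and none rose. The scaffold genes Dlg2, Dlg1 and Dlg4, whose proteins anchor Kv1 and Kir channels, fell by 0.63, 0.45 and 0.49 dorsally and by 0.66, 0.42 and 0.62 medially. Dpp6, an auxiliary subunit of Kv4 channels named after its values were seen, fell by 0.34 and 0.53. Among 9 tested voltage-gated sodium channel genes 5 fell and 1 rose dorsally, and 6 fell and none rose medially; Scn3a went from 19.8 ± 1.60 to 12.7 ± 4.89 TPM dorsally and from 14.8 ± 1.80 to 7.40 ± 1.94 TPM medially. Calcium channel genes numbered 20 tested, with 14 lower and 1 higher dorsally and 15 lower and 1 higher medially. The increase was Cacng5, a gamma subunit gene, from 2.57 ± 0.614 to 14.9 ± 3.73 TPM dorsally and from 2.08 ± 0.589 to 24.3 ± 4.98 TPM medially. Of 3 tested HCN genes Hcn3 and Hcn4 fell in both regions. Potassium and chloride transport genes gave 5 lower and 1 higher of 15 dorsally and 6 and 1 medially, near the shares over all tested genes.

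Other cell types that the pieces could hold were read in the same way, beside the same shares over all tested genes (27.6% lower dorsally and 30.2% medially, 9.93% and 9.44% higher). The dorsal interneuron count and the medial pericyte and mural count lay near the shares of lower genes. Interneuron markers fell in 3 of 13 tested genes dorsally and 10 of 13 medially, summing to 164 to 193 TPM in control and 85.8 to 162 TPM in mutant dorsal libraries and to 147 to 153 and 61.0 to 106 TPM medially. Cajal-Retzius markers fell in 0 of 8 dorsally in limma (1 lower and 1 higher at an unadjusted p under 0.05) and in 5 of 8 medially, from 128 to 207 TPM in control to 66.3 to 121 TPM in mutant medial libraries. Pericyte and mural markers fell in 3 of 8 dorsally and 2 of 8 medially, microglia markers in 5 of 10 dorsally and 0 of 10 medially (0 also unadjusted), and endothelial markers in 1 of 11 and 0 of 11 (0 also unadjusted). None of these genes rose past the threshold, and 1 endothelial gene was higher medially at an unadjusted p under 0.05. Other lists did rise: 4 of 8 intermediate progenitor markers were higher and 1 lower dorsally, and 3 higher and 1 lower medially. The 7 oligodendrocyte precursor markers summed to 6.79 to 10.1 TPM in dorsal controls and 19.3 to 28.2 TPM in dorsal mutants, and to 4.34 to 12.04 against 30.1 to 35.6 TPM medially, with no overlap. In each region 1 of the 5 tested rose, Olig2, from 1.27 ± 0.247 to 15.9 ± 5.97 TPM dorsally and from 2.38 ± 1.98 to 27.8 ± 1.80 TPM medially, while the lineage marker Sox10 averaged at most 0.188 TPM in any group. The part of these cells in the channel values was not tested.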

How the data were processed

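RNA of E14.5 cortex was, per the labels' protocols, extracted with the RNeasy Micro Kit; the library kit was TruSeq Stranded Total RNA. The authors deposited TPM values per gene symbol for each library; the submitters' processing notes name mm10, while for the aligner, quantifier, annotation and use of strand the record is silent: not given in the sources used here. TPM keep no depth and were analysed on a log scale with limma 3.58.1 and statmod 1.5.0 in R 4.3.3, as log2(TPM + 1), 1 mean per group over all 19 libraries, empirical Bayes with trend and robust settings, and Benjamini-Hochberg adjustment over 13520 of 47643 symbols that reached 1 TPM in 4 or more libraries; the threshold was 0.05. The fit was tested on simulated data. Counts, sums and figures were made with Python 3.11.15, pandas 2.3.3 and matplotlib 3.10.9.

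The comparisons were mutant against control in each region, their difference, and medial against dorsal in each genotype. Genes named are the 12 highest in control dorsal cortex, the 10 largest called changes in each direction per mutant comparison, the 6 largest in each of the other comparisons, 2 per family and region by adjusted p, up to 3 per list and Gli1, with further members named to complete a family; some genes within these rules are not reported here, though they stay in the counts and sums. The members, families and lists were chosen with earlier results of these data known. Replicate numbers paired the libraries of 1 genotype: over 9 dorsal and medial pairs the correlation of deviations was 0.549 to 0.795 and 18 of 18 libraries were closest to their own number. Across genotypes, 7 pairs gave -0.436 to 0.138. The number comes from the sample titles; the description field of control medial libraries numbers them differently. Alternatives were other pseudocounts, filters, scalings, blocks, a sex term, male embryos alone, the compared groups alone and each library left out. Gene positions are from GENCODE M21 (GRCm38) and upstream sequences from RefSeq (GRCm38.p6).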

Additional observations from a re-analysis of the deposited data

Results flagged for a closer look

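In 11 of 160 groups, over 40 genes, 1 library stood apart from the rest of its group by Dixon's test, at a level that flags about 1 in 20 groups by chance. Kcne2 and Kcnj13 joined the 38 named members in this check after their values were seen, so the count cannot be set against chance. Most of these values belong to the medial pieces. Kcne2 stood at 17.4 TPM in control medial library 4, where the next was 0.830 TPM, at 2.04 TPM in mutant medial library 3 (next 0.219 TPM) and at 0.510 TPM in control dorsal library 2 (next 0.160 TPM). Kcnj13 had 3.96 TPM in control medial library 4 (next 0.330 TPM) and 0.484 TPM in mutant medial library 3, with the other mutant medial libraries at 0. Kcnj10 was 6.74 TPM in mutant medial library 1 (next 3.87 TPM). Kcna4 was 1.80 TPM in mutant medial library 3 (next 1.28 TPM). On the low side, Kcnip3 was 21.2 TPM in control dorsal library 5 (next 25.5 TPM) and Kcnt2 3.89 TPM in control medial library 6 (next 4.31 TPM). Kcnc2 was 2.47 TPM in mutant dorsal library 2 (next 1.90 TPM), and Kcnk1 was 2.68 TPM in mutant dorsal library 4 (next 2.00 TPM).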

How the results depend on the processing

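Pseudocounts of 0.1 and 0.5 kept every named call. Dorsal increases numbered 1 with no filter, the sex term, male embryos alone and the embryo as a block. They also numbered 1 with the 5 TPM filter, under which Kcne3, at most 1.81 TPM in any library, was not tested. Medial increases were 2 after median-ratio rescaling and 4 after quantile normalization, which left 19 decreases. For the difference between regions the embryo block gave 2 decreases. Male embryos alone, an alternative chosen after seeing the data, gave 0 and 0 regional calls in controls and 9 decreases in mutants. Over all 13520 genes such regional calls, in either direction, numbered 10 in controls and 1614 in mutants. Medial calls in mutants were 5 higher with the embryo block, 2 with title number as a block, 4 with the embryo as a fixed term over pairs (chosen after seeing the data) and 0 higher and 0 lower with only those groups fitted. Of 65 named calls, males alone lost 30, only the groups compared 10, quantile normalization 9, the sex term 8, median-ratio rescaling 7, no filter 4, the block by embryo 3 and the title-number block, which also joins unrelated embryos across genotypes, 3.

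Without 1 library, dorsal counts were 1 to 2 higher and 17 to 28 lower, medial counts 1 to 2 and 23 to 30, regional counts in controls 7 to 9 and 19 to 26, and in mutants 1 to 2 and 6 to 20. Counted over each of the 65 named calls in each of the 19 such fits, a call was kept in 1184 cases and lost in 51. Kept in every such fit were 15 of 21 named mutant calls dorsally and 21 of 25 medially. The same held for 12 of 12 named regional calls in controls and 6 of 7 in mutants. These were picked by rule as the largest differences. Over all members called it held for 18 of 25 lower and 7 of 8 higher regional calls in controls. In mutants it held for 6 of 15 lower and 1 of 1 higher. The sign turned only for uncalled changes. Without 1 library, Kcna3 ranged from -0.0096 to 0.23 medially, Kcnab1 from -0.25 to 0.10 dorsally and from -0.032 to 0.13 medially, Kcnab3 from -0.091 to 0.13 medially, Kcnd2 from -0.15 to 0.032 dorsally, Kcnd3 from -0.016 to 0.12 dorsally and from -0.0065 to 0.067 medially, and Kcnk5 from -0.011 to 0.10 dorsally. In other settings, Kcna3 was -0.10 medially in males, Kcnab3 0.013 dorsally and Kcnb2 0.0011 medially after quantile normalization, Kcnd2 0.019 and 0.056 dorsally after median-ratio and quantile rescaling, Kcnd3 -0.0057 with the sex term and -0.0049 in males medially, and Kcnk5 -0.011 dorsally with the title-number block. Apart from the alternatives' own construction, the cause was not tested. TPM keep no depth, so counting error cannot be given for low members such as Kcnt1, Kcne3 and Kcnmb2.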
